A study of Daphnia magna with 15 samples.

Results

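In young water fleas (Daphnia magna, whole animals), 287 of 18877 assembled loci met a rule for higher RNA levels with both etoposide and imatinib. In each, every library from animals exposed to either drug lay above every library of an unexposed set named control A. The mean of each drug also exceeded that of control A by a set minimum. Levels are FPKM (fragment counts corrected for transcript length and library size), summed over the transcripts of a locus and set on the log2(FPKM + 1) scale. A locus was taken when its mean over the 15 libraries was at least 1 FPKM, its span was at least 300 bp, the lowest of the 6 etoposide and imatinib values lay above the highest of the 3 control A values, and the mean of each drug group exceeded that of control A by at least 1, which is 2-fold on this scale. The loci were chosen by these values, so the differences of the 2 drugs from control A are descriptions without a test. The cisplatin libraries and a second unexposed set, control B, entered the choice only through the mean over 15 libraries, and 292 loci met the rule without that minimum.

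Each of the 5 groups held 3 libraries. The groups were etoposide at 300 ng/L (ETP), imatinib mesylate at 2000 ng/L (IMA), cisplatin at 10 ng/L (CDDP), control B without drug and control A without drug. All animals came from the lab strain of Aquatic Research Organisms, were 48 to 72 h old, and spent 24 h unfed at 20 to 25 animals in 25 mL of medium. Neither control set is tied to a drug in the labels, and nothing there says whether replicates were separate cultures, so a p-value here reflects variation between libraries that may be technical. The protocols name 12 indices for the 15 libraries without saying which were sequenced together, so sequencing batch and group cannot be told apart.

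Etoposide holds topoisomerase II on DNA while the strands are broken, so that breaks persist. Imatinib blocks a small group of tyrosine kinases, known in human cells as ABL, KIT and the PDGF receptors. Cisplatin binds DNA bases and crosslinks them. Daphnia are small freshwater crustaceans used as test animals in ecotoxicology. Locus identifiers come from the authors' own transcript assembly. Looked up among 28335 RefSeq genes (ASM2063170v1.1), 0 had an entry, so the loci are given by identifier and position, without gene names or roles. A higher level in whole animals can come from more cells of a type or from more RNA per cell, which cannot be told apart here.

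Control A 1 stood apart among the libraries, with 1014 of the 18098 loci tested listed at 0, against 34 to 199 in the other 14 libraries. At low loci, where values fall on steps of single reads, its commonest ratio to etoposide 2 was 1.7 on the log2 scale, against -1.02 to 0.62 in the others, so 1 read was worth more in control A 1. Steps that differ by a factor of 2 could not be told apart, and absolute depth is unknown. An FPKM of 0 in this table can be a failed estimate, and such values are given as listed at 0.

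Over the 287 loci, the drug libraries were highest, control A was lowest, and cisplatin and control B lay between them. The median level was 16.9, 15.4 and 25.6 FPKM in the etoposide libraries 1, 2 and 3, and 14.8, 19.1 and 19.4 FPKM in the imatinib libraries. It was 13.1, 12.8 and 11.8 FPKM with cisplatin, 12.0, 13.4 and 12.5 FPKM in control B, and 6.06, 3.89 and 8.95 FPKM in control A. Over all loci tested there was no such drop in control A. The medians ran from 11.0 to 12.7 FPKM in the etoposide, imatinib and control A libraries. In the cisplatin and control B libraries they were higher, from 13.6 to 14.7 FPKM. The part of this offset between libraries in the position of cisplatin and control B was not tested. Single libraries set the extremes. Etoposide 3 was the highest etoposide library in 240 of the 287 loci (83.6%, against 37.1% of all loci tested), and control A 2 was the lowest control A library in 181 (63.1%, against 33.3%). Control A 1 listed 44 of the 287 loci at 0 (15.3%). The median SD within a group was 0.44 for etoposide, 0.27 for imatinib, 0.22 for cisplatin, 0.24 for control B and 0.68 for control A on the log2 scale, each above that of all loci tested (0.29, 0.23, 0.15, 0.16 and 0.38).

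**Figure D1:**
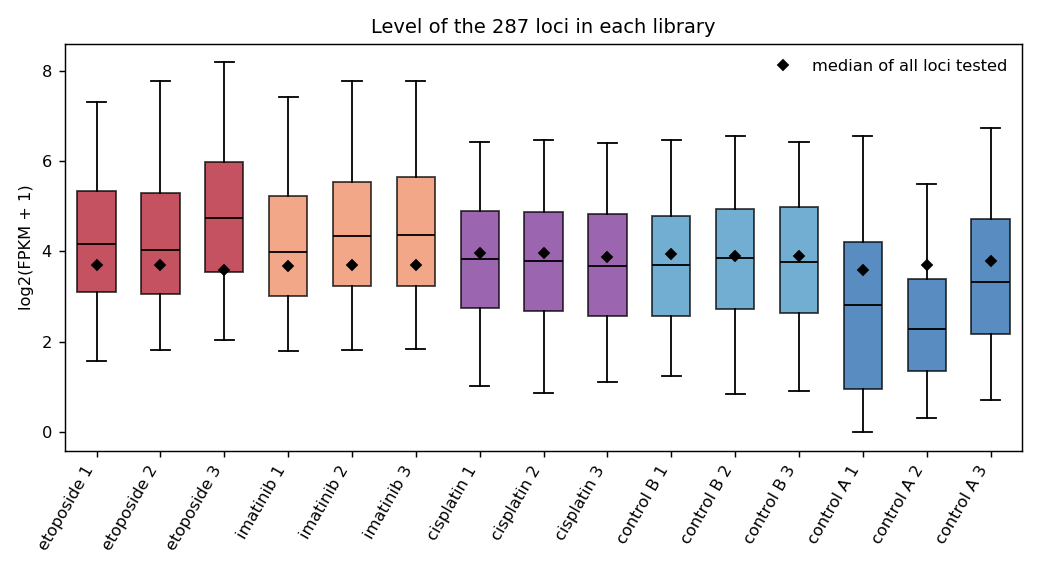
Level of the 287 loci in each of the 15 libraries, as log2(FPKM + 1). Boxes span the quartiles, lines mark medians, whiskers run from the 5th to the 95th percentile and diamonds mark the median of all loci tested; the control A boxes lie lowest, with a median of 3.89 FPKM in control A 2 against 25.6 FPKM in etoposide 3.

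The median log2 difference from control A was 1.38 for etoposide and 1.35 for imatinib, with ranges of 1.00 to 3.93 and 1.00 to 3.80. The smaller of the 2 differences reached 1.5 in 80 loci, 2 in 24 and 3 in 4, which were XLOC_013873, XLOC_016082, XLOC_001001 and XLOC_008309, the last pair named after their values were seen. Without the span minimum 304 loci, 1.68% of those tested, met the rule. The 2 loci with the largest smaller difference were XLOC_013873 (scaffold02302, 14674 to 17349) and XLOC_016082 (scaffold02757, 8658 to 11747). XLOC_013873 measured 37.7, 62.8 and 88.1 FPKM with etoposide and 33.8, 79.9 and 67.0 FPKM with imatinib, against 1.23, 0.748 and 0.999 FPKM with cisplatin, 15.6, 0.469 and 5.88 FPKM in control B and 6.74, 0.475 and 5.21 FPKM in control A. All 6 drug libraries lay above the other 9, and the differences from control A were 3.87 and 3.80 on the log2 scale. XLOC_016082 measured 17.2, 27.5 and 73.7 FPKM with etoposide and 40.2, 29.4 and 40.8 FPKM with imatinib, against 6.22, 1.32 and 0.626 FPKM with cisplatin, 19.0, 5.22 and 4.95 FPKM in control B and 0.000507, 4.26 and 10.5 FPKM in control A. Here control B 1 overlapped the etoposide libraries, and control A 1 was close to 0. XLOC_001001 was listed at 0 in control A 1 and 2 and measured 4.07 FPKM in control A 3, and XLOC_008309 measured 2.06 and 1.16 FPKM in control A 1 and 2 and was practically 0 in control A 3.

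Just inside the difference minimum lay XLOC_017609, with 42.8 ± 9.61 FPKM with etoposide, 38.7 ± 8.14 with imatinib and 19.4 ± 6.90 in control A (SD, n = 3 each), and XLOC_016859, with 4.20 ± 1.76 FPKM with etoposide, 4.003 ± 0.636 with imatinib and 1.49 ± 0.174 in control A (SD, n = 3 each). Just outside lay XLOC_007735, with 9.41 ± 2.42 FPKM with etoposide, 8.44 ± 1.797 with imatinib and 3.80 ± 1.46 in control A, and XLOC_002870, with 6.67 ± 2.76 FPKM with etoposide, 6.10 ± 1.38 with imatinib and 2.52 ± 0.445 in control A (SD, n = 3 each). In each of these 4 loci imatinib gave the smaller difference, which rounds to 1.00 on the log2 scale. A further 976 loci had drug libraries above control A without overlap but missed the minimum difference with at least 1 drug.

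The outside check was where control B stood. In 92 of the 287 loci (32.1%), all 3 control B libraries lay below all 6 etoposide and imatinib libraries, against 9.29% of all loci tested. For cisplatin the same held in 111 loci (38.7%, against 8.6%), and for control B and cisplatin together in 84 loci (29.3%, against 6.82%). The choice of loci with high drug values itself raises these shares, so they carry no test. Among the 976 loci under the minimum difference, control B lay below the drugs in 194 (19.9%). In the other direction, control B lay above control A without overlap in 172 of the 287 loci (59.9%, against 27.8% of all loci tested) and cisplatin in 167 (58.2%, against 29.2%); the choice of loci low in control A raises these shares too. Control B overlapped the drug libraries in 192 loci (66.9%, near the 65.1% of all loci tested). In 3 (1.05%, against 25.6% of all loci tested) it lay above all of them, a share that the choice of loci high with the drugs lowers. These 3 were XLOC_001085, XLOC_005532 and XLOC_008542. The mean of control B lay above the midpoint between control A and the mean of the 2 drugs in 197 loci (68.6%, against 70.3% of all loci tested). In the 287 loci this is the side nearer to the drugs. Over all loci tested it is not, wherever the drugs lay below control A, so the 2 shares differ in meaning.

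The median log2 difference of the 287 loci from control B was 0.42 for etoposide and 0.40 for imatinib, against -0.18 and -0.21 over all loci tested. With 1 library left out the rule was applied again, so the list changed too. The median for etoposide was then 0.22 over 240 loci without etoposide 3 and 0.69 over 373 loci without etoposide 1. Without control A 3 it was 0.27 for etoposide and 0.21 for imatinib, over 696 loci. Control B exceeded control A by a median of 0.95, against 0.24 over all loci. The quartiles over all loci tested were -0.11 and 0.58. After median centring of the libraries, control B lay below all drug libraries in 48.3% of the loci that met the rule and above control A in 43.4%. With 1 library left out, the share below the drugs was again taken over the loci that then met the rule. It was 22.4% without control A 2 and 48.0% without etoposide 1.

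**Figure D2:**
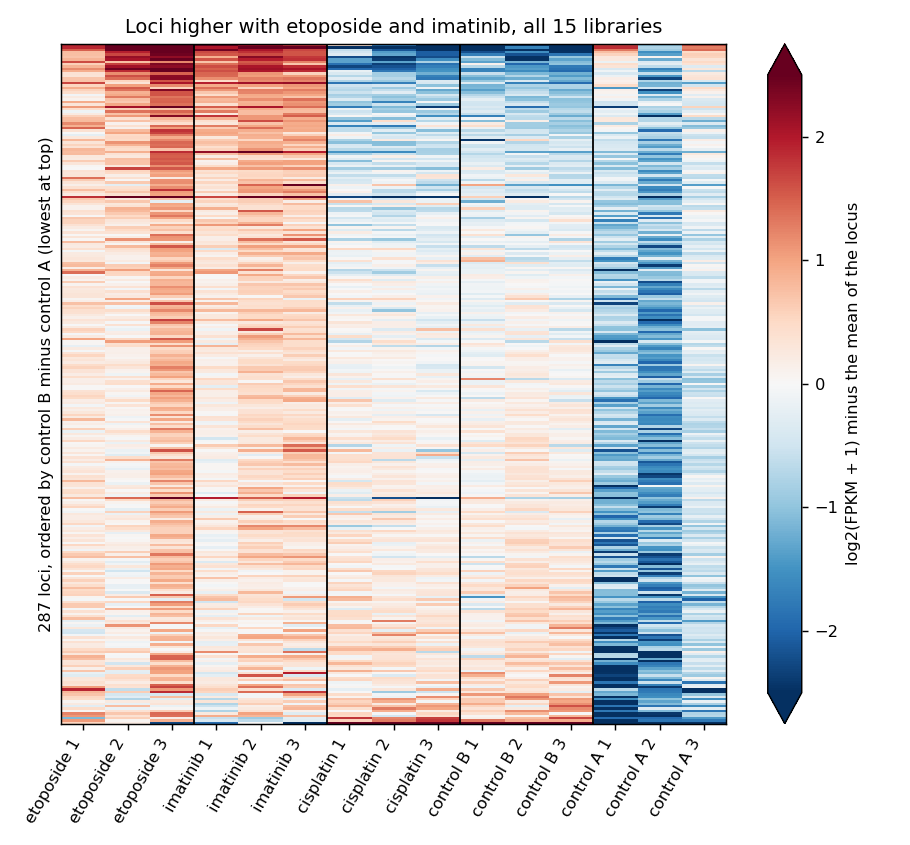
The 287 loci (rows) in the 15 libraries (columns), as log2(FPKM + 1) minus the mean of the locus, ordered by control B minus control A. At the top control B and cisplatin are as low as control A or lower. Control B lies above control A without overlap in 172 loci (59.9%, against 27.8% of all loci tested), a share that the choice of loci raises.

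**Figure D3:**
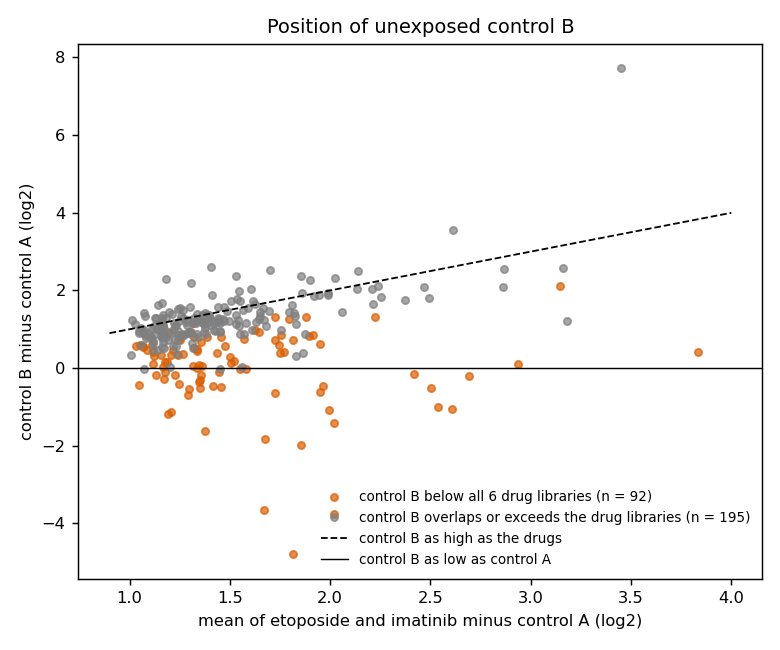
Control B minus control A (log2, vertical) against the mean of etoposide and imatinib minus control A (log2, horizontal), 1 point per locus. The 92 orange loci have control B below all 6 drug libraries; the 195 grey loci overlap or exceed them and gather along the dashed line of equal height.

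Setting the loci apart by control B gave 2 groups that differed in level, and this is a description because control B values defined them. In the 92 loci with control B below the drugs, the median was 27.4, 33.1 and 48.5 FPKM with etoposide and 29.9, 36.7 and 33.2 FPKM with imatinib, against 13.5, 11.7 and 10.5 FPKM with cisplatin, 10.3, 10.7 and 9.91 FPKM in control B and 13.0, 5.88 and 14.2 FPKM in control A. The 3 groups without etoposide or imatinib thus had medians at most 14.2 FPKM. In the other 195 loci the medians were 15.9, 13.0 and 22.2 FPKM with etoposide, 12.5, 17.3 and 17.1 FPKM with imatinib, 13.1, 13.0 and 12.5 FPKM with cisplatin, 12.2, 13.9 and 13.6 FPKM in control B, and 4.80, 3.48 and 7.75 FPKM in control A. There, control A alone was low. Control A 1 listed 6 of the 92 loci (6.52%) and 38 of the 195 (19.5%) at 0; its part in the result was not tested, and without control A 1 the rule took 445 loci, of which 46.3% had control B below the drugs.

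The widest gaps above control B belonged to XLOC_009684 (scaffold01736, 6616 to 13383) and XLOC_003255 (scaffold00934, 104641 to 113538). XLOC_009684 measured 184.1, 371.6 and 692.2 FPKM with etoposide and 405.4, 217.9 and 168.6 FPKM with imatinib, against 64.4, 13.4 and 1.56 FPKM with cisplatin, 3.57, 1.42 and 1.57 FPKM in control B and 161.7, 23.7 and 152.7 FPKM in control A. Control A 1 and 3 came close to the lowest drug libraries, and the log2 differences from control B were 6.89 for etoposide and 6.34 for imatinib against 2.09 and 1.54 from control A. XLOC_003255 measured 80.1, 182.7 and 307 FPKM with etoposide, 154, 117 and 90.6 FPKM with imatinib, 17.9, 5.56 and 1.24 FPKM with cisplatin, 4.13, 1.73 and 2.08 FPKM in control B and 70.5, 14.6 and 76.1 FPKM in control A. In both loci every control B library lay below every control A library, control A 2 was the lowest control A library and cisplatin 1 the highest cisplatin library. Neither locus met the rule under every omission of 1 library.

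These loci belong to 10 of the 287 (3.48%, against 10.7% of all loci tested) in which control B lay below control A without overlap. The choice of loci low in control A lowers this share. In these 10 loci the unexposed sets differed in the direction opposite to most of the list. Their means over all libraries ran from 2.34 to 554 FPKM. Control A 2 was the lowest control A library in all 10, against 63.1% of the 287 loci and 33.3% of all loci tested. Etoposide 1 was the lowest etoposide library in 9, a share that was not counted over all loci. The median log2 difference from control B was 3.51 for etoposide (range 1.49 to 6.89) and 3.52 for imatinib (1.47 to 6.34), while control B minus control A had a median of -1.73. The rule puts both drugs at least 1 above control A, and these loci were picked with control B below it. Each difference of a drug from control B therefore had to exceed 1, and only its size describes the loci.

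XLOC_011337 (scaffold01940, 23938 to 26088), 1 of these 10, had the highest mean level of the 287 loci. It measured 577, 1394 and 1861 FPKM with etoposide and 634.5, 1377 and 1317 FPKM with imatinib, against 12.9, 10.8 and 18.7 FPKM with cisplatin, 14.4, 48.6 and 9.27 FPKM in control B and 566.3, 90.7 and 379.7 FPKM in control A. Etoposide 1 lay just above control A 1, and cisplatin and control B lay far below both. Listed at the same interval, XLOC_011331 measured 27.1, 65.5 and 85.4 FPKM with etoposide and 33.9, 52.9 and 50.5 FPKM with imatinib, against 2.22, 2.05 and 3.26 FPKM with cisplatin, 2.86, 3.82 and 2.41 FPKM in control B and 8.38, 2.91 and 14.1 FPKM in control A. XLOC_011344, the next locus on that scaffold (22720 to 23887), measured 8.93, 20.6 and 19.6 FPKM with etoposide and 10.0, 24.5 and 27.4 FPKM with imatinib, against 4.68, 4.07 and 7.34 FPKM with cisplatin, 8.81, 8.45 and 4.80 FPKM in control B and 7.24, 2.33 and 4.71 FPKM in control A. In all 3 loci of this run the 6 drug libraries stood above the other 9. How reads were divided between the loci of the shared interval is not given in the sources used here, so their separate levels are uncertain.

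At the other end stood XLOC_005532 (scaffold01203, 5418 to 6063), which was lowest in control A but far higher in control B than with either drug. It measured 81.4, 64.5 and 10.9 FPKM with etoposide and 14.1, 56.2 and 8.91 FPKM with imatinib, against 579.4, 360.3 and 632.9 FPKM with cisplatin, 654.7, 426 and 601.4 FPKM in control B and 0, 4.45 and 2.29 FPKM in control A. The log2 differences of etoposide and imatinib from control A were 3.93 and 2.97, and from control B -3.79 and -4.75, so the direction turned with the control set. XLOC_013823 (scaffold02295, 73176 to 74126) was low with both drugs and in control A, with control B overlapping etoposide and cisplatin above both drugs. Its values were 0.759, 4.73 and 3.25 FPKM with etoposide, 1.54, 1.03 and 2.16 FPKM with imatinib, 12.1, 7.79 and 11.4 FPKM with cisplatin, 3.14, 5.32 and 10.9 FPKM in control B, and 0.418 FPKM in control A 3 with the other control A libraries listed at 0. XLOC_014339 (scaffold02393, 846 to 1539), second by mean level, was lowest in control A, with the other 4 groups close together. It measured 303.6, 312.5 and 513 FPKM with etoposide and 286.5, 369.9 and 366.8 FPKM with imatinib, against 289.8, 278.8 and 249.4 FPKM with cisplatin, 275.4, 271.9 and 260.3 FPKM in control B and 212.8, 65.7 and 202.7 FPKM in control A. Its log2 difference from control A was 1.36 for etoposide and 1.25 for imatinib, but 0.44 and 0.33 from control B, with all 3 control B libraries just below the lowest drug library. Of the remaining loci with control B above both drugs, named after their values were seen, XLOC_001085 measured 12.6, 8.59 and 9.05 FPKM with etoposide and 7.86, 9.23 and 11.9 FPKM with imatinib, against 13.8, 14.8 and 12.8 FPKM with cisplatin, 12.9, 15.2 and 15.2 FPKM in control B and 2.55, 2.84 and 7.12 FPKM in control A. XLOC_008542 measured 3.05, 0.730 and 1.42 FPKM with etoposide and 0.772, 2.59 and 1.62 FPKM with imatinib, against 3.73, 5.35 and 3.20 FPKM with cisplatin, 3.60, 5.16 and 5.09 FPKM in control B, and 0.442 FPKM in control A 2 with the other control A libraries listed at 0. In both, cisplatin too lay above every drug library.

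**Figure D4:**
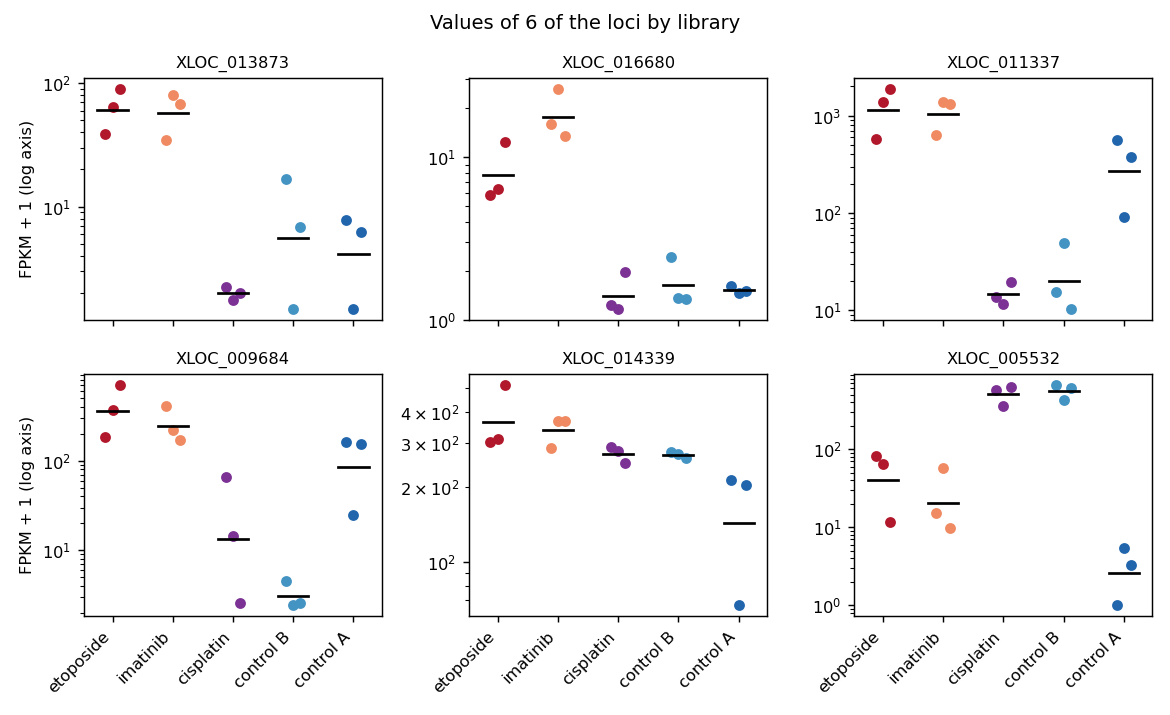
FPKM + 1 (log axis) of 6 of the loci in every library, with 1 point per library and a bar at the mean of the log values. In XLOC_013873 and XLOC_016680 the drugs stand above the other 3 groups, in XLOC_011337 and XLOC_009684 control B lies below control A, in XLOC_014339 control A is lowest, and in XLOC_005532 control B and cisplatin are highest.

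The steadiest loci, by their SD within etoposide, imatinib and control A, were XLOC_009512 (scaffold01708, 9883 to 10194) and XLOC_011367 (scaffold01942, 8575 to 9164). XLOC_009512 measured 193.4, 221.8 and 237.3 FPKM with etoposide and 246.5, 276.2 and 256.7 FPKM with imatinib, against 131.1, 80.1 and 134.7 FPKM with cisplatin, 103, 92.8 and 89.5 FPKM in control B and 132.3, 92.5 and 102 FPKM in control A. The drug libraries were all above the other 9, and the log2 differences were 1.00 and 1.26 from control A and 1.18 and 1.44 from control B, so this locus gave nearly the same size against either unexposed set. XLOC_011367 was low, with 1.26, 1.20 and 1.97 FPKM with etoposide, 1.93, 1.71 and 1.8 FPKM with imatinib, 0.772, 1.69 and 1.14 FPKM with cisplatin, 3.73, 0.286 and 0.602 FPKM in control B, and 0.367 FPKM in control A 2 with the other control A libraries listed at 0. Control B 1 exceeded all of the drug libraries there.

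Cisplatin against control B is the comparison that the rule did not use, apart from the minimum of the mean level. None of the 287 loci differed, a count of 0, nor did any of all loci tested, 0% of them (limma, adjusted p under 0.05); 3 of the 287 (1.05%) and 223 of all loci (1.23%) had an unadjusted p under 0.05. The median log2 difference was -0.02, with quartiles of -0.13 and 0.10, against 0.01 over all loci. The 95% interval lay within 2-fold for 170 of the 287 loci (59.2%, against 74.5% of all loci tested), and in the rest it reached past 2-fold in at least 1 direction. The spread behind these intervals, SE and p-values was estimated over all 5 groups, so it also reflects groups outside this comparison. In the 287 loci the median SD was 0.22 for cisplatin and 0.24 for control B. It was 0.44 for etoposide, 0.27 for imatinib and 0.68 for control A. The smallest p-values in the lower direction belonged to XLOC_015438 (scaffold02603, 1734 to 3588), with 5.54, 4.39 and 5.53 FPKM with cisplatin against 14.9, 7.42 and 7.51 FPKM in control B, and to XLOC_010269 (scaffold01816, 6 to 903), with 3.14, 4.22 and 6.78 FPKM against 9.87, 6.91 and 8.69 FPKM. Their log2 differences were -0.77 (SE 0.29) and -0.77 (SE 0.30), and neither passed (limma, adjusted p = 1 for each). The third with an unadjusted p under 0.05, XLOC_006105, named after its values were seen, measured 146, 152 and 132 FPKM with cisplatin against 194, 174 and 206 FPKM in control B, with a log2 difference of -0.41 (SE 0.17; limma, adjusted p = 1). In the higher direction stood XLOC_009684, at 2.13 (SE 1.02), carried by cisplatin 1, and XLOC_013823, at 0.73 (SE 0.44); neither passed (limma, adjusted p = 1 for each).

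Etoposide and imatinib are compared over the 287 loci as a description, without a test, because the rule used these values and asks for both drugs to be high, which favours like values. Over all loci tested, 0% differed between the 2 drugs (limma, adjusted p under 0.05), and 2289 (12.6%) had an unadjusted p under 0.05. In the 287 loci the median log2 difference was 0.03, with quartiles of -0.10 and 0.19 and a range of -1.19 to 1.13. The drugs did not overlap in 8 loci, with etoposide above imatinib in 3 (1.05%, against 10% of all loci tested) and below it in 5 (1.74%, against 7.96%), and the rule itself lowers these shares. The concentrations were 300 and 2000 ng/L.

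Among the loci higher with imatinib was XLOC_016680 (scaffold02921, 56257 to 58979). It measured 4.89, 5.40 and 11.4 FPKM with etoposide and 14.9, 24.9 and 12.4 FPKM with imatinib, against 0.237, 0.168 and 0.977 FPKM with cisplatin, 1.44, 0.371 and 0.356 FPKM in control B and 0.611, 0.475 and 0.505 FPKM in control A. Every imatinib library was above every etoposide library, and every one of these 6 above the other 9. Etoposide minus imatinib was -1.19 on the log2 scale. XLOC_014000 (scaffold02328, 8803 to 9333) measured 7.71, 8.44 and 7.78 FPKM with etoposide against 11.9, 13.5 and 20.9 FPKM with imatinib, a log2 difference of -0.83. In the opposite direction, XLOC_008598 (scaffold01591, 45596 to 53480) measured 29.8, 14.3 and 26.2 FPKM with etoposide against 10.1, 8.35 and 10.9 FPKM with imatinib, a log2 difference of 1.13. Control B, at 35.9, 26.5 and 26.9 FPKM, was nearer to etoposide there. XLOC_000973 (scaffold00360, 11035 to 11548) measured 18.5 ± 6.89 FPKM with etoposide against 12.3 ± 4.60 with imatinib (SD, n = 3 each), with values that overlapped and a log2 difference of 0.56.

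**Figure D5:**
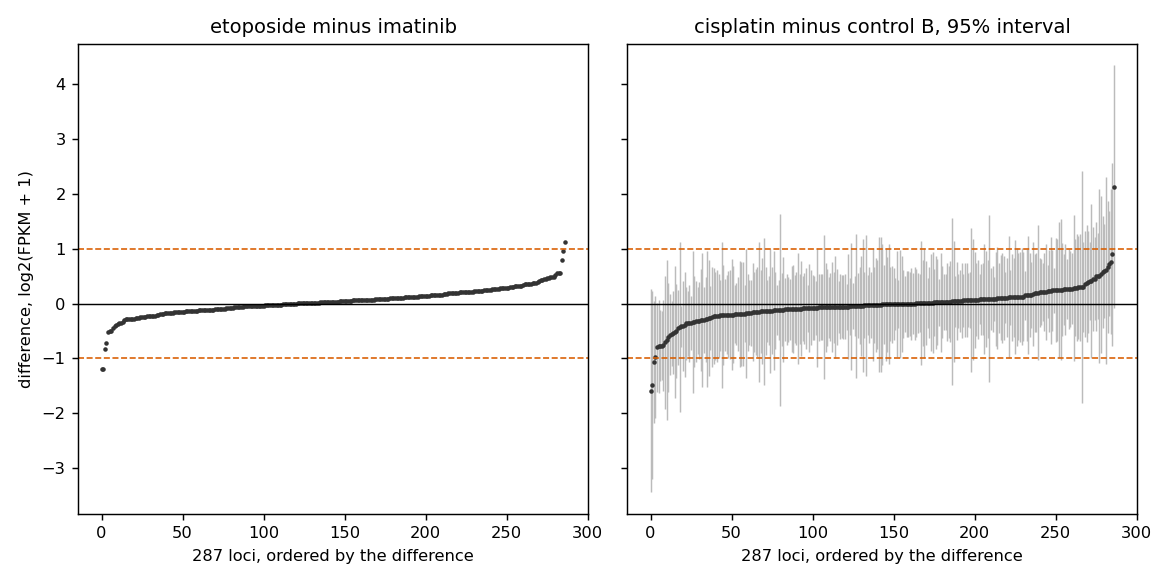
Differences of etoposide minus imatinib (left) and cisplatin minus control B (right) for the 287 loci on the log2(FPKM + 1) scale, ordered by size, with 95% intervals from limma as grey lines on the right only. Dashed lines mark 2-fold; 170 of the intervals lie wholly within them.

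As a list, the loci were shorter than all loci tested, mainly through the 195 loci with control B not below the drugs. The 287 loci also more often had 1 transcript, a share that was not counted in the 92 and the 195 apart. Their median span was 1361 bp, with a minimum of 300 bp set by the rule, against 2120 bp over all loci tested, and 2572 bp in the 976 loci under the minimum difference. The median span was 2013 bp in the 92 loci with control B below the drugs and 1200 bp in the other 195. One transcript was listed for 230 of the 287 loci (80.1%, against 63.1% of all loci tested). The upper quartile of transcripts per locus was 2 in the 92 loci, as over all loci tested, and 1 in the other 195. Their median level over all libraries was 14.5 FPKM, against 13.6 FPKM. Positions are scattered over 253 scaffolds, with 28 scaffolds holding at least 2 of the loci and 4 as the highest number on a scaffold. Of the 287 loci, 15 (5.23%) were next to another of them in the order of eligible loci, where 2.82% of all eligible loci were next to one. They formed 7 runs, the longest of 3 loci being that with XLOC_011337. Loci listed at the same interval counted as neighbours here, as XLOC_011331 and XLOC_011337 did in that run. The 484 neighbours outside the list had median log2 differences from control A of 0.10 with etoposide and 0.18 with imatinib. An interval shared with another locus was listed for 79 of the 287 loci (27.5%, against 30% of all loci tested), and for these the span is that of the shared interval.

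More than 1 transcript was listed for 57 of the loci. Of their 175 transcripts, 119 had a mean of at least 1 FPKM, and of these 47 had all 6 drug values above control A and 0 had all of them below. The choice of loci by their sum raises the first count and lowers the second, so both are descriptions. The same counts were not taken over the transcripts of all loci. Among the 40 loci with at least 2 transcripts of that mean level, 25 had 1 of them above control A without overlap, 5 had 2 or more and 10 had none. Transcripts with a lower mean were not counted. In those 10 loci the sum over the locus separated the groups, while no counted transcript did.

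The rule was still met by 105 of the 287 loci whichever single library was omitted. In 40 of these 105, control B lay below all drug libraries, in 38 both control B and cisplatin did, and in 61 control B lay above control A without overlap, against 9.29%, 6.82% and 27.8% of all loci tested, in the order given; the choice of loci raises each of these counts. XLOC_013873, XLOC_016680, XLOC_011331, XLOC_011337 and XLOC_011344 are among the 38, while XLOC_005532, XLOC_013823 and XLOC_008598 are among the 105 with control B above control A.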

How the data were processed

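Whole-animal RNA (320 ng of total RNA a library) went through a strand-marking poly(A) kit, per the labels' protocols. The authors deposited FPKM for each assembled transcript in each library. Tools listed in the submitters' processing notes are TopHat2 2.0, Bowtie2 2.1, Cufflinks 2.2.1 and Cuffdiff, CASAVA 1.8.0 and Trim Galore; their settings, the genome build, the strand setting and between-library scaling were not stated. FPKM were summed per locus (33982 transcripts, 18877 loci). Starts were raised by 1, since the table counts from 0. Overlapping loci share 1 interval in the table.

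Loci averaging 1 FPKM or more (18098) were tested on log2(FPKM + 1), which understates changes of low loci, with limma 3.58.1 in R 4.3.3 (5 group means, Benjamini-Hochberg over all loci, threshold 0.05). Descriptions used Python 3.11.15. The fit was tested on simulated data. Members, lists, tests and settings were chosen with earlier results of these data known. Loci were named by rank, up to 2 for each: largest smaller difference, widest and narrowest gap to control B, smallest p in each direction of cisplatin against control B and, for naming only, of etoposide against imatinib, just inside and outside the difference minimum, highest mean, smallest SD within the groups of the rule, and the longest run; others are marked as chosen after their values were seen. Same-numbered cisplatin and control B libraries deviated together (correlations across loci of 0.244, 0.215 and 0.505), a pairing taken from the data, since the labels do not state one. No counting intervals are given because read depth is not known.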

Additional observations from a re-analysis of the deposited data

How the results depend on the processing

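The rule took 445 loci without control A 1 and 696 without control A 3, against 287. The range was 232 to 696 over all libraries left out in turn. Over the loci taken each time, the median difference from control B ran from 0.22 to 0.69 for etoposide and from 0.21 to 0.58 for imatinib. Of the 287 loci, 161 were among the 232 taken without control A 2. It took 80 loci with a minimum difference of 1.5 and 734 with 1.5-fold, and 251 to 398 under another pseudocount (0.1), median centring, quantile normalization, no FPKM minimum, the highest transcript or no span minimum. After median centring, 48.3% of the loci had control B below both drugs, against 32.1%. The cause was not tested. The numbers of loci in which cisplatin differed from control B or etoposide from imatinib were 0 throughout (limma), except 1 without cisplatin 3 and 2 without control A 3, over ranges of 0 to 1 and 0 to 2 without single libraries; no member was called between cisplatin and control B under any of these settings, a count of 0 (limma). With the replicate number as a block (paired fit), and with library weights or the 6 libraries alone, both counts stayed at 0; same-numbered etoposide and imatinib libraries share only a number (correlations of 0.108, -0.121 and 0.351). Of the 25 members named, 10 met the rule under every setting that kept the minimum difference at 1. For the 5 named with a test of cisplatin against control B, the adjusted p ran from 0.687 to 1 over 120 alternative tests (limma).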
